A study of Mus musculus with 2 samples.

Results

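The genes described here are 10 genes of basement membrane and network collagens, chosen by their symbols from 19465 genes counted in the series: Col4a1, Col4a2, Col4a3, Col4a4, Col4a5 and Col4a6 of type IV collagen, Col8a1 and Col8a2 of type VIII, Col15a1 of type XV and Col18a1 of type XVIII. They were measured in heart sections by Visium CytAssist, an assay that hybridises gene-specific probes to fixed tissue and reads them out spot by spot on a barcoded grid as unique molecular identifiers (UMIs). A control α-MHC-MerCreMer+/− mouse and a TOP2B transgenic mouse, genotype α-MHC-MerCreMer+/− hTOP2B LSL/−, gave 1 section each, both heterozygous for the Cre transgene and both given a single intraperitoneal dose of 80 mg/kg tamoxifen. The transgenic mouse also carries a human TOP2B cDNA behind a CAG promoter and a LoxP-flanked STOP cassette, which the tamoxifen-dependent Cre, driven by the cardiomyocyte promoter α-MHC, removes. The methods give an age of 6 weeks for transgenic mice at this dose, and name siblings of the same age, given the same dose, as controls. The time from injection to harvest of these sections is not given in the sources used here. With 1 section in each group no test was possible, no difference has a replicate check, and section, animal and genotype cannot be told apart. Ranges in parentheses are 95% intervals of counting error only, exact Poisson for levels, exact conditional binomial for ratios and Clopper–Pearson for shares. Ranges of a change relative to Col4a1 instead use a normal approximation.

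Type IV collagen forms the sheet-like network of every basement membrane, the thin matrix layer that wraps each cardiomyocyte and lies beneath the endothelium of capillaries. Its 6 chains combine in fixed trimers: α1 with α2 in most tissues, α3 with α4 and α5 in a few such as the kidney glomerulus, and α5 with α6 in others such as smooth muscle and skin. Type VIII collagen is a short-chain collagen that forms hexagonal networks beneath endothelium and in remodelling vessel walls, while types XV and XVIII carry long sugar chains, sit at the outer face of basement membranes and release the fragments restin and endostatin.

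The chains also differ in how their genes lie in the genome, which is shown here because neighbouring genes can be read beside each other's values. Promoter windows of 250 bases before and 50 bases after the annotated first base were matched for 9 of the 10 genes in RefSeq's annotation of GRCm38.p6, an earlier build than the GRCm39 named in the submitters' processing notes, so the positions hold for GRCm38.p6 alone. Col4a1 (minus strand) and Col4a2 (plus strand) start head to head on chromosome 8, with annotated 5′ ends that overlap by 22 bases. These shared bases, at chr8:11312805-11312826 on the plus strand, hold 1 GC box (GGGCGG on either strand, in capitals).
Col4a1 and Col4a2, shared 5′ bases: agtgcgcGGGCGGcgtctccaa
Col4a6 (minus strand) and Col4a5 (plus strand) are divergent and do not overlap on chromosome X, with first bases 1343 bases apart. The 250 bases before each start are given in the direction of the gene, at chrX:141475169-141475418 for Col4a5 and chrX:141474077-141474326 for Col4a6, with GC boxes in capitals.
Col4a5: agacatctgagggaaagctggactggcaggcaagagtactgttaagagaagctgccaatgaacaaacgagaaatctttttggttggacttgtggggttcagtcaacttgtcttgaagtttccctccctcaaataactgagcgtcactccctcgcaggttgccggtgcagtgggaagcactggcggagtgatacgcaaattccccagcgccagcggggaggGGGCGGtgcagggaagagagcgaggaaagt
Col4a6: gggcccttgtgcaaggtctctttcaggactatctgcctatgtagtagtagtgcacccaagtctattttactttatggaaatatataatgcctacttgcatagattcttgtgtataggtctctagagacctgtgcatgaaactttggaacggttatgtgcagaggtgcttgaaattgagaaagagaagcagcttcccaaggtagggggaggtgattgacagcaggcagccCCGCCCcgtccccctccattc
For a gene whose level differed strongly between the sections, Col8a1 (chr16:57754738-57754987, minus strand), and for the gene with the smallest ratio between the sections, Col15a1 (chr4:47207762-47208011, plus strand), the same stretches are shown for contrast.
Col8a1: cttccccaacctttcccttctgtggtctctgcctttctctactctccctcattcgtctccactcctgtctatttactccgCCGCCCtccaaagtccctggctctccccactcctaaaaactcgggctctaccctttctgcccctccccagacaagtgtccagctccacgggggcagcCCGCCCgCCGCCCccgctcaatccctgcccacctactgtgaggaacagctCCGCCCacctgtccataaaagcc
Col15a1: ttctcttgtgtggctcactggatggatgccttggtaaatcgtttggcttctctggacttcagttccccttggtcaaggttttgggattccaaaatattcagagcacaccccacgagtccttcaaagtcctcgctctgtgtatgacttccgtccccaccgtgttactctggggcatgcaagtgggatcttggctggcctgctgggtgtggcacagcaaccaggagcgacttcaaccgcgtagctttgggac

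Col8a1 held 4 GC boxes in its 250 bases and Col15a1 none, with a GC content of 60.8% and 53.6%. Among the other genes these values were not ordered by the ratio between the sections. Col4a6 held 1 GC box at a GC content of 47.6%, Col4a4 none at 62.8% and Col4a2 2 at 73.6%. A GC box was found in the windows of 7 of the 9 matched genes and in 35.7% of all 32851 RefSeq promoter windows of the same length. Neither the TATA box TATAAA, held by 13.6% of all windows, nor the AP-1 motif TGACTCA, held by 5.20%, was found in a member's window, and CCAAT was found in those of 4 genes against 37.4% of all windows. Col18a1 had 2 windows, of which 1 held both its GC boxes and its CCAAT, and a gene counted if either window matched. Counts of genes and shares of windows are thus unlike measures. Windows of Col4a1 and Col4a2 share 78 bases, so their matches are not separate. These matches describe letters and no binding was measured.

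The control section had 1256 spots with 14376300 UMIs and the transgenic section 924 spots with 12953389 UMIs. Median depth was 11335.5 and 14531 UMIs per spot, so each level is given as counts per 1000000 UMIs of the section (CPM). A spot is a small region that holds cells of several types, and a lower level can be fewer cells of a type or less RNA per cell, which cannot be told apart. The heart label was borne out by cardiomyocyte markers, of which all 7 of 7 were counted in both sections, at 73452 CPM in the control heart and 39323 CPM in the transgenic heart. Of these, 4 genes were at least 2-fold lower in the transgenic heart and 3 within 2-fold. They ranged from Tnni3 at 10089 and 2662 CPM to Tnnt2 at 13091 and 14721 CPM, so the sum does not speak for each gene. The mouse Top2b gene had 106 CPM in the control heart and 102 CPM in the transgenic heart, which does not check the label because the transgene is a human cDNA that the mouse probes need not bind. No UMI of the 4 Y-linked genes Ddx3y, Uty, Eif2s3y and Kdm5d was counted in either section, which allows up to 0.209 CPM of each in the control heart and 0.232 CPM in the transgenic heart. In 54 transgenic and 8 control spots, which on the spot maps lay mainly inside the central cavity, more than 10% of UMIs came from erythroid genes, and 2 transgenic and 3 control spots with at most 60 UMIs lay apart from the tissue. Several results over spots are therefore also given without these spots, an alternative chosen after the spot maps were seen.

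Collagens of this group were higher in the transgenic heart, with one exception. Summed over the 10 genes, 16777 UMIs (1167 CPM) were counted in the control heart and 29399 UMIs (2270 CPM) in the transgenic heart, a log2 ratio of 0.96 (0.93 to 0.99). All 10 genes passed a minimum of 20 UMIs summed over the sections. Of these, 7 were higher by 2-fold or more in the transgenic heart, against 13.7% of the 15236 genes with that many UMIs, and none was at least 2-fold lower, against 5.61%. The other 3, Col4a1, Col4a2 and Col15a1, lay within 2-fold and were the genes with the most UMIs in the control section. Without the erythroid-rich and detached spots the summed ratio was 0.98 and the count again 7. The median log2 ratio of the 10 genes was 1.87, and that of all 15236 genes was 0.20.

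Col4a1 and Col4a2, the chains of the ubiquitous network, were higher by nearly the same factor in the transgenic heart. Col4a1 had 471 CPM (459 to 482) in the control heart and 827 CPM (812 to 843) in the transgenic heart. Col4a2 had 469 CPM (457 to 480) and 845 CPM (830 to 861). The log2 ratios were 0.81 (0.77 to 0.86) and 0.85 (0.81 to 0.89), which is 1.76-fold and 1.80-fold. For each 100 Col4a1 UMIs there were 99.6 Col4a2 UMIs in the control and 102 in the transgenic section, a log2 change of 0.04 (−0.02 to 0.10) that counting error covers. The 2 neighbouring genes thus kept their ratio between the sections, while every other chain changed against Col4a1. Endothelial markers, of cells known to make much of this collagen, were at 1888 CPM in the control heart and 1917 CPM in the transgenic heart summed over 9 genes. At least 2-fold higher was 1 gene, Cldn5, with 49.9 and 120 CPM, and none was at least 2-fold lower. The lowest ratio was that of Kdr, with 215 and 113 CPM, a log2 ratio of −0.92, so the sum does not speak for each gene. Of that sum Fabp4 alone had 968 and 983 CPM. Mural cell markers, of smooth muscle and pericytes, were at 1200 and 1188 CPM over 9 genes, which went different ways. At least 2-fold higher was 1 gene, Cnn1, with 3.13 and 20.9 CPM, and at least 2-fold lower was 1, Abcc9, with 254 and 85.3 CPM. Fibroblast markers, a list of 9 genes that holds the fibrillar collagens Col1a1, Col1a2 and Col3a1, were at 2067 and 6281 CPM. Within that list Col1a1 had 172 and 1101 CPM and Gsn 595 and 595 CPM, and 6 of the 9 genes were at least 2-fold higher. The part of these and other cell types in the collagen levels was not tested.

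The other 4 type IV chains were much scarcer in the control and differed more. Together they had 488 UMIs (33.9 CPM) in the control heart and 1884 UMIs (145 CPM) in the transgenic heart, a log2 ratio of 2.10 (1.95 to 2.25). Col4a5 encodes the α5 chain shared by both minor trimers, and it was the most counted of the 4 with 22.3 CPM in the control heart and 70.2 CPM in the transgenic heart, 3.14-fold higher. Col4a3 had 46 UMIs (3.20 CPM) and 248 UMIs (19.1 CPM), 5.98-fold higher. Its partner and neighbour on chromosome 1, Col4a4, had 98 UMIs (6.82 CPM) and 312 UMIs (24.1 CPM), 3.53-fold higher. The α6 chain gene Col4a6 stood out from the other 3. It had 23 UMIs (1.60 CPM) in the control, within the range of up to 1.95 CPM seen for 12 genes of other organs, and 415 UMIs (32.0 CPM) in the transgenic section. Its log2 ratio was 4.32 (3.72 to 5.00), and that of its divergent neighbour Col4a5 was 1.65 (1.47 to 1.84). With the control at background level, the ratio of Col4a6 compares UMIs as counted, and its change relative to Col4a1 is read in the same way. Per 100 Col4a1 UMIs, Col4a6 went from 0.340 to 3.87, Col4a5 from 4.75 to 8.48, Col4a3 from 0.680 to 2.31 and Col4a4 from 1.45 to 2.91. Intervals of the log2 ratios of Col4a4 (1.49 to 2.16) and Col4a5 overlapped, and so did those of Col4a3 (2.12 to 3.07) and Col4a4 by a small margin.

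Type VIII collagen made up a larger share of the group in the transgenic section than in the control. Col8a1, which encodes its α1 chain, had 184 UMIs (12.8 CPM) in the control heart and 3032 UMIs (234 CPM) in the transgenic heart. That is an 18.3-fold difference, with a log2 ratio of 4.19 (3.98 to 4.42). The α2 chain gene Col8a2 had 19 UMIs (1.32 CPM), again at the level of genes of other organs, and 226 UMIs (17.4 CPM), with a log2 ratio of 3.72 (3.05 to 4.48) that likewise compares UMIs with a background level. Both chains together made up 1.21% of the UMIs of the 10 genes in the control and 11.1% in the transgenic section, while the share of Col4a1 and Col4a2 was 80.5% and 73.7%. These shares depend on how well each gene's probes capture, so they are comparable between the sections and not between genes. No order is given among the ratios of Col4a6, Col8a1 and Col8a2.

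The 2 collagens of the outer basement membrane face differed from each other. Col15a1 had 2500 UMIs (174 CPM, 167 to 181) in the control heart and 2306 UMIs (178 CPM, 171 to 185) in the transgenic heart, a log2 ratio of 0.03 (−0.05 to 0.12). The sign of that ratio turned under 5 of the 9 alternatives, which ranged from −0.15 to 0.10, so no direction is given. Col18a1, the gene of the endostatin precursor, had 84 UMIs (5.84 CPM) and 285 UMIs (22.0 CPM), 3.77-fold higher. Relative to Col4a1, Col15a1 went down, from 37.0 to 21.5 UMIs per 100 Col4a1 UMIs, a log2 change of −0.78 (−0.87 to −0.69). It was the only one of the 9 other members to do so.

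**Figure D1:**
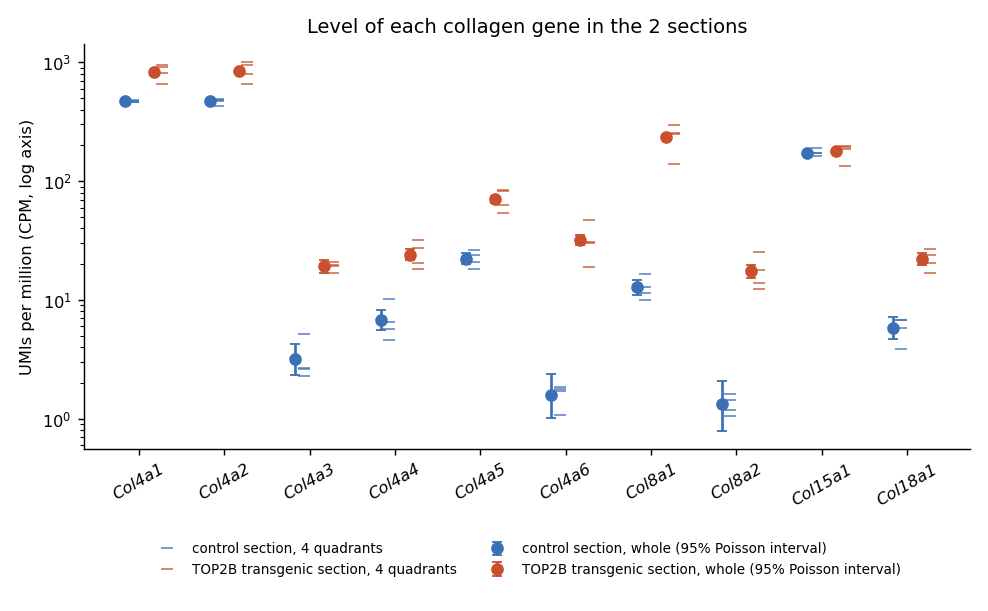
Level of each gene in CPM (log axis) in the control (blue) and TOP2B transgenic (red) section. Large points are whole sections with 95% Poisson intervals and short bars are the 4 quadrants of each section. Among these genes the quadrants of the sections overlap for Col15a1 alone, which was not counted over all genes.

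Each section was split into 4 quadrants at the median array row and column of its spots to show the spread inside a section, which is not a spread between animals. In the control section Col4a1 had 468, 476, 460 and 478 CPM in the 4 quadrants, and in the transgenic section 814, 917, 661 and 945 CPM. Col8a1 had 16.4, 12.8, 11.5 and 10.1 CPM in the control, and 248, 299, 140 and 256 CPM in the transgenic quadrants. Col4a6 had 1.08, 1.83, 1.73 and 1.78 CPM in the control, and 30.8, 47.3, 18.8 and 30.4 CPM in the transgenic quadrants. The lowest transgenic quadrant was the third one for each of these genes, and it still lay above every control quadrant. For Col15a1 the quadrants overlapped, with 171, 173, 162 and 190 CPM in the control and 195, 199, 134 and 188 CPM in the transgenic section. The quadrants of the sections stood apart for each of the other 9 genes. How often they stand apart over all genes was not counted, so this number describes the members alone. Summed over all 10, the control quadrants ranged from 1129 to 1204 CPM and the transgenic quadrants from 1735 to 2601 CPM.

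**Figure D2:**
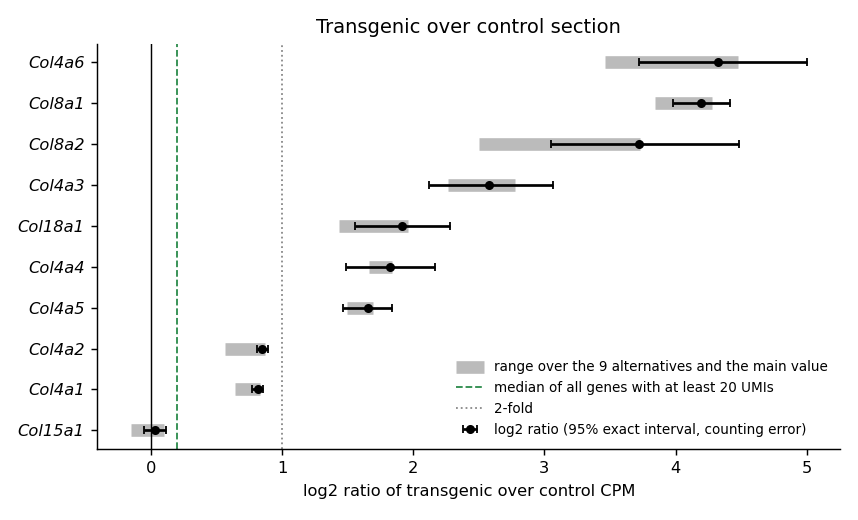
Log2 ratio of transgenic over control level for each gene, ordered by size, with 95% exact intervals of counting error (black) and the range over the main value and 9 alternatives of scaling and spot choice (grey). The dashed line marks the median of all genes at 0.20 and the dotted line 2-fold, which 7 genes exceed under each of the 9 alternatives.

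Shares of spots with at least 1 UMI separated genes found nearly everywhere from genes found in few spots. Col4a1 was found in 97.8% of control and 96.2% of transgenic spots, and Col4a2 in 98.1% and 96.5%. The median count was 5 UMIs per control spot and 11 UMIs per transgenic spot for each of these genes. Col15a1 was found in 82.4% and 83.3% of spots, with a median of 2 UMIs in both sections. Col8a1 showed the widest change, from 12.7% (10.9 to 14.6) of control spots to 82.7% (80.1 to 85.1) of transgenic spots. It reached at most 4 UMIs in a control spot and 19 UMIs in a transgenic spot. Among the minor type IV chains, Col4a5 was found in 22.4% and 57.1% of spots, Col4a4 in 6.93% and 28.0%, Col4a3 in 3.66% and 22.7% and Col4a6 in 1.75% and 30.8%. Col18a1 was found in 6.29% and 23.9% of spots and Col8a2 in 1.51% and 19.5%. For reading low shares, 12 genes of other organs that a heart should lack were found in a median of 0.836% of control and 0.974% of transgenic spots, with the highest, thyroglobulin (Tg), at 2.23% and 3.90%. Control Col4a6 and Col8a2 lay below that highest value and are read as background, not as expression. When every spot was thinned to 8000 UMIs, leaving out 131 control and 75 transgenic spots, Col8a1 was found in 8.62% and 75.3% of spots, Col4a5 in 16.3% and 41.5%, Col4a6 in 1.16% and 19.1%, and Col15a1 in 73.0% and 72.7%. At that equal depth Col4a1 was found in 96.6% of control and 99.3% of transgenic spots and Col4a2 in 96.7% and 98.9%, the opposite order to that over all spots.

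**Figure D3:**
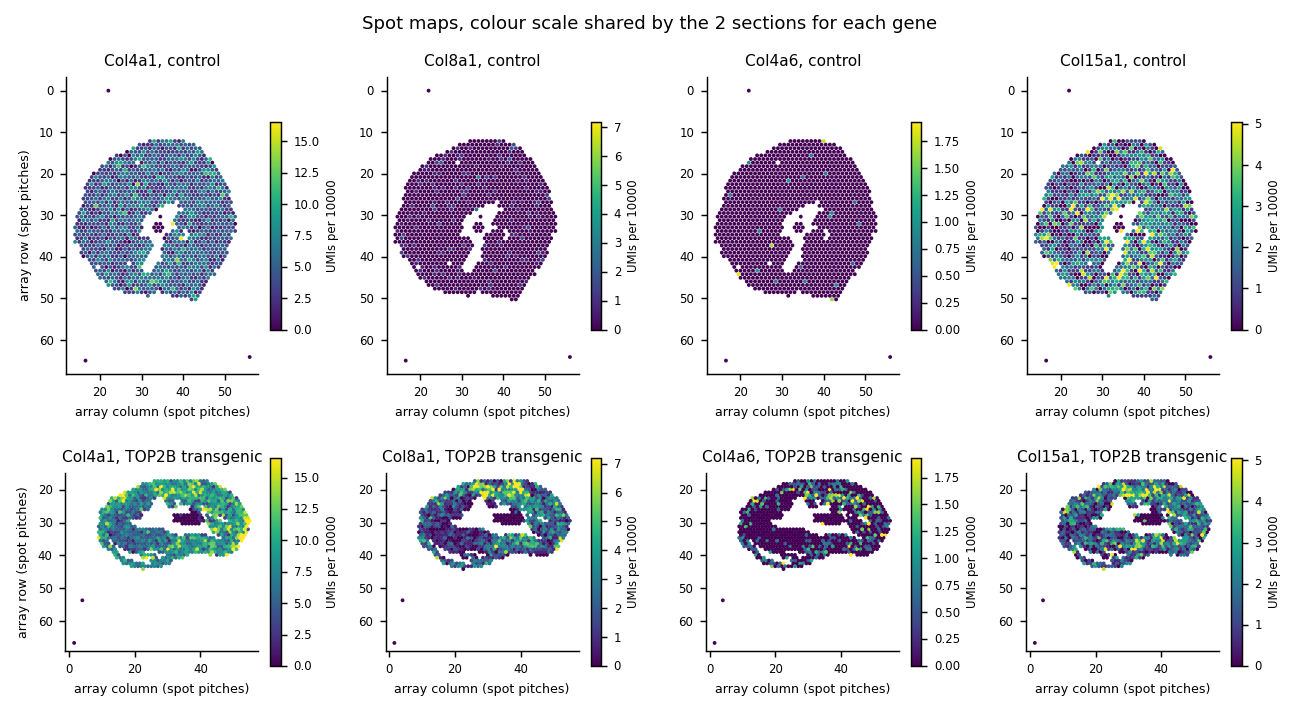
Spot maps of Col4a1, Col8a1, Col4a6 and Col15a1 in the control (top) and TOP2B transgenic (bottom) section, in array positions, coloured by UMIs per 10000 of the spot on a scale shared by both sections for each gene. Col4a1 and Col8a1 form bright and dim zones in the transgenic wall, control Col8a1 has 184 UMIs, too few to show a pattern, the dark group of spots inside the transgenic cavity is rich in erythroid genes, and the single spots away from the tissue hold at most 60 UMIs.

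Clustering scores of the major chains and Col8a1 were lower in the control than in the transgenic section. Moran's I, a score near 0 for a random and near 1 for a strongly clustered pattern, was deposited for each gene by section. For Col4a1 it was 0.06 in the control, rank 250 of 19219 genes, and 0.52 in the transgenic section, where it ranked 117 of 19227 genes. Col4a2 had 0.02 (rank 1106) and 0.49 (rank 155), and Col8a1 had 0.01 (rank 2492) and 0.40 (rank 248). Col15a1 was the most clustered of the group in the control with 0.08, rank 146 of 19219 genes, and had 0.21 in the transgenic section, rank 683 of 19227 genes. Scores of similar rank were thus higher in the transgenic section, and a higher score there does not by itself set these genes apart from others. Col4a6 had −0.01 and 0.15, Col4a5 0.01 and 0.11, and the values of Col4a3, Col4a4, Col8a2 and Col18a1 in the transgenic section lay between 0.04 and 0.06, at counts that leave most spots at 0. Part of these scores came with the spots of the cavity. Computed again on the log of UMIs per 10000, Moran's I of Col4a1 in the transgenic section was 0.58 with all spots and 0.33 without the erythroid-rich and detached spots, that of Col4a2 was 0.56 and 0.41, and that of Col8a1 0.48 and 0.44. In the control the same values for Col4a1 were 0.07 and 0.03. The variance of counts over spots, divided by that of Poisson counts at the same depths, went from 1.24 in the control to 2.22 in the transgenic section for Col4a1, a ratio that rises with the mean level even where the pattern over spots is the same.

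The summed level differed little between border and interior spots. Border spots, those with at least 1 of 6 neighbours without tissue, were 18.3% of the control and 33.7% of the transgenic spots. The summed group had 1199 CPM at the border and 1162 CPM in the interior of the control, a log2 ratio of 0.05 (−0.02 to 0.11). In the transgenic section it had 2254 CPM and 2276 CPM, a ratio of −0.01 (−0.05 to 0.02). Single genes departed from this. In the transgenic section Col8a1 had 207 CPM at the border and 245 CPM in the interior, Col4a6 26.4 and 34.3 CPM and Col15a1 163 and 184 CPM. Col4a4 went the other way with 30.8 CPM at the border and 21.5 CPM in the interior, and the interval of each of these 4 log2 ratios left out 0. In the control Col4a4 was also higher at the border, with 10.9 against 6.15 CPM on 22 and 76 UMIs, and so was Col4a3, with 5.96 against 2.75 CPM on 12 and 34 UMIs and an interval of the log2 ratio of 0.03 to 2.10. By layers from the border, the transgenic section had summed levels of 2254, 2328, 2311 and 2152 CPM, the last over all deeper spots pooled. Compared within these layers, the transgenic over control log2 ratio of the summed group lay between 0.91 and 0.97 in the 4 layers, that of Col4a1 between 0.71 and 0.89 and that of Col8a1 between 3.90 and 4.44. Col15a1 had −0.20 (−0.39 to −0.01) in the border layer and 0.19 (0.03 to 0.34) in the pooled deeper spots, which need not lie equally deep in both sections.

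Within the transgenic section the collagens tended to be higher where the summed fibroblast markers were higher. Spearman's rho over the section's 923 spots with a UMI is given as a description. Spots of a section share a library and cells, and neighbouring spots are alike. Of the fibroblast list's 81361 transgenic UMIs, Col1a1, Col1a2 and Col3a1 gave 14264, 22615 and 22756, so its rho largely compares collagens with collagens. The activated fibroblast list holds no collagen gene. Col4a2 had a rho of 0.65 with the summed fibroblast markers, 0.62 with activated fibroblast markers (Postn, Cthrc1, Fn1 and 5 others) and 0.44 with stressed cardiomyocyte markers such as Nppa and Myh7. With endothelial markers its rho was 0.00. Col4a1 had 0.57, 0.53, 0.35 and 0.08 with the same lists, and Col8a1 had 0.57, 0.67, 0.42 and −0.17. Against cardiomyocyte markers the values were negative, −0.38 for Col4a2, −0.37 for Col8a1 and −0.28 for Col4a1. Without the erythroid-rich and detached spots these last 3 values were −0.59, −0.55 and −0.48, and those with activated fibroblast markers were 0.59, 0.65 and 0.49. Values of sparse genes were smaller, with Col4a6 at 0.38 and Col4a3 at 0.14 for activated fibroblast markers, and most of their spots are at 0. In the control section, over 1256 spots, the values of Col4a1, Col4a2 and Col4a5 with each list lay between −0.07 and 0.09, and the highest of all was Col15a1 with fibroblast markers at 0.27. Activated fibroblast markers themselves had 81.9 CPM in the control heart and 1368 CPM in the transgenic heart, with 8 of 8 genes at least 2-fold higher, so the control offers few counts to correlate with.

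**Figure D4:**
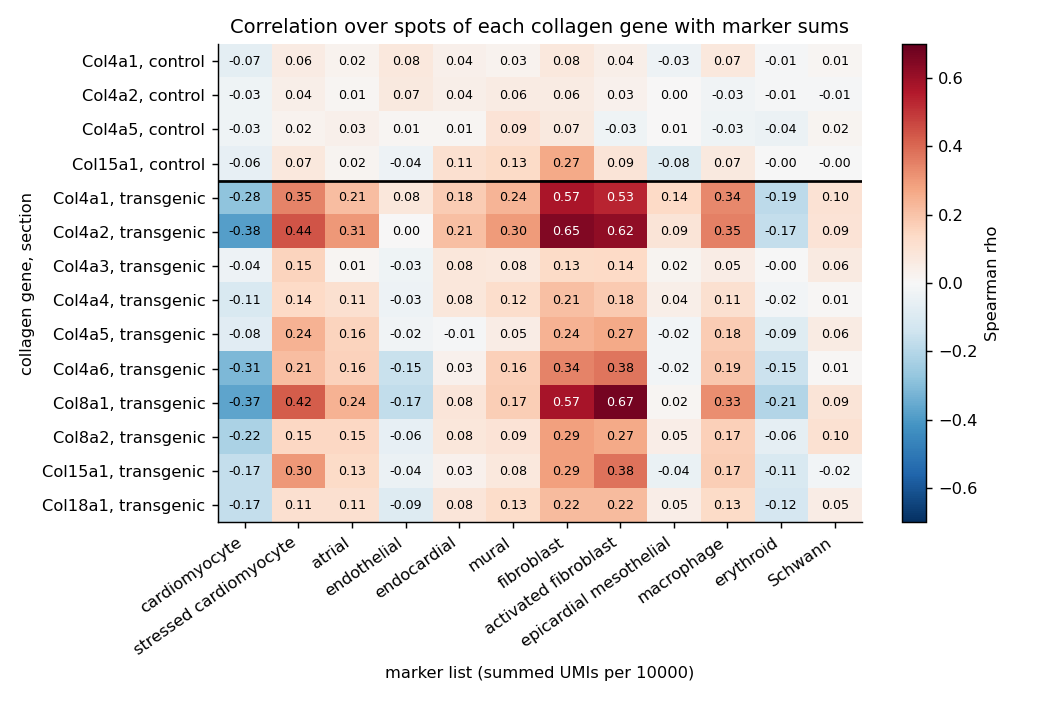
Spearman's rho over spots between each gene with at least 200 UMIs in a section (rows, control above the line, transgenic below) and summed marker lists (columns), printed in each cell and coloured from −0.7 to 0.7. The transgenic rows of Col4a1, Col4a2 and Col8a1 have their highest values, 0.53 to 0.67, with both fibroblast lists, and the control rows are near 0 apart from Col15a1.

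The pattern was also given as levels. Spots of each section were ordered by their share of activated fibroblast UMIs and the lowest and highest tertiles compared, 307 spots each in the transgenic section. Col8a1 had 96.4 CPM in the lowest and 372 CPM in the highest tertile, a log2 ratio of 1.95 (1.79 to 2.12). Col4a6 had 7.09 and 51.8 CPM, a ratio of 2.87 (2.29 to 3.50), and Col8a2 4.47 and 26.9 CPM, a ratio of 2.59 (1.85 to 3.41). The 3 other minor type IV chains were more even. Col4a3 had 13.4 and 22.8 CPM, Col4a4 16.3 and 31.6 CPM, and Col4a5 46.5 and 89.7 CPM, with log2 ratios from 0.76 to 0.96 whose intervals lay below that of Col4a6. Col4a1 had 591 and 1005 CPM, Col4a2 562 and 1074 CPM, and Col15a1 121 and 236 CPM. Without the erythroid-rich and detached spots the ratios were 1.87 for Col8a1, 2.68 for Col4a6, 2.26 for Col8a2 and 0.70 for Col4a1, and median depth was 14022 UMIs per spot in the lowest and 15439 in the highest tertile. Set against the whole control section, the lowest transgenic tertile had 96.4 against 12.8 CPM for Col8a1 and 7.09 against 1.60 CPM for Col4a6. For Col15a1 it had 121 against 174 CPM. This sets a part of 1 section against the whole of the other, and it was not done for all genes. In the control the tertiles of Col4a1 had 463 and 480 CPM and those of Col8a1 11.1 and 14.9 CPM, differences that counting error covers. Control Col15a1 had 160 and 188 CPM, a log2 ratio of 0.23 (0.08 to 0.37), Col4a6 had 0.873 and 3.06 CPM on 4 and 14 UMIs, with an interval of 0.14 to 3.87, and the summed group 1144 and 1205 CPM, a ratio of 0.07 (0.02 to 0.13).

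**Figure D5:**
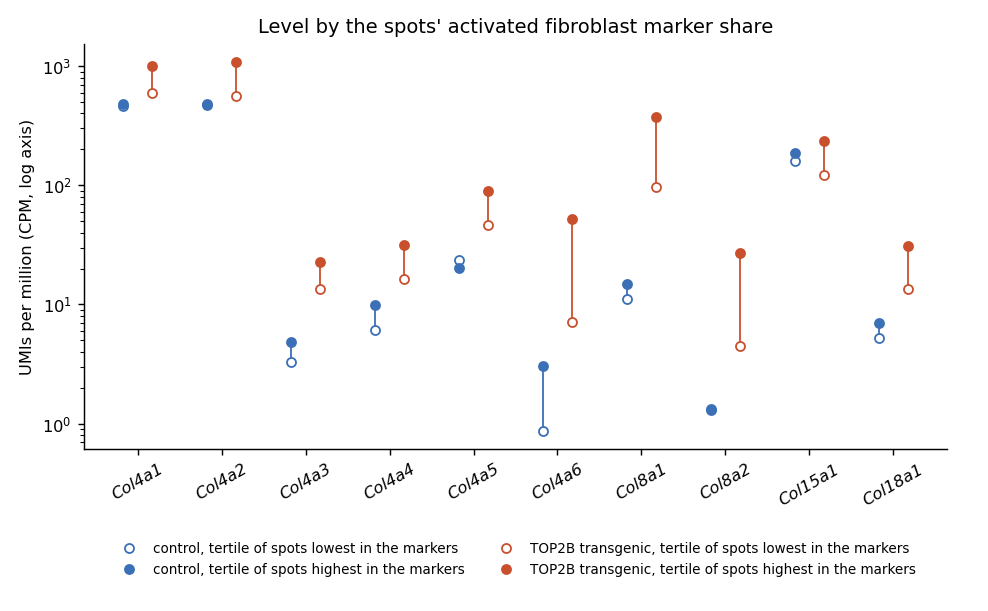
Level of each gene in CPM (log axis) in the tertiles of spots lowest (open) and highest (filled) in activated fibroblast markers, for the control (blue) and TOP2B transgenic (red) section. The red pairs are wide for Col4a6, Col8a1 and Col8a2, with log2 ratios of 2.87, 1.95 and 2.59, and the control pair of Col8a2 falls on one point.

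Tertiles by other cell types differed in direction. By stressed cardiomyocyte markers, Col4a2 had 648 CPM in the lowest and 982 CPM in the highest tertile of transgenic spots, and Col8a1 150 and 307 CPM. Macrophage markers gave 707 and 938 CPM for Col4a2 and 184 and 292 CPM for Col8a1. For Col4a2 the log2 ratios by atrial, endocardial and mural markers were 0.33, 0.33 and 0.30. By erythroid markers they were −0.09 for Col4a2 and −0.38 for Col8a1. By cardiomyocyte markers, Col8a1 had 343 CPM in the lowest and 118 CPM in the highest tertile of transgenic spots, Col4a6 54.5 and 8.42 CPM, and Col4a1 985 and 628 CPM. By endothelial markers, Col4a1 had 834 and 837 CPM and Col4a2 887 and 816 CPM, while Col8a1 had 307 and 181 CPM and Col4a6 46.3 and 21.4 CPM. Col4a1 was thus level over transgenic spots rich and poor in the endothelial sum, of which Fabp4 gave 12738 of 24837 UMIs. Col4a2 was slightly lower where that sum was high, with a log2 ratio of −0.12 (−0.19 to −0.05), and Col8a1 and Col4a6 were lower there too. In the control Col4a1 had 433 CPM in the lowest and 484 CPM in the highest endothelial tertile, a log2 ratio of 0.16 (0.07 to 0.25). The members were also compared in the spots richest in cardiomyocyte markers. In the 50% of each section's spots richest in these markers, the transgenic over control log2 ratio was 3.84 for Col8a1 and 0.56 for Col4a2. It was 3.46 for Col4a6 and 2.50 for Col8a2, whose control levels are read as background. These genes had 23 and 19 UMIs in the whole control section, and the ratios are given without intervals. Spots were ranked within each section on a sum whose level differed between the sections, so they are not matched for cardiomyocyte content.

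In the transgenic section, fibrillar collagens were among the 5 genes most like Col4a1, Col4a2, Col4a5 and Col8a1 over spots, and not among those of Col15a1. For Col4a1 the 5 highest values of rho among genes with at least 500 UMIs were those of Col1a1 (0.58), Col1a2 (0.57), Col3a1 (0.57), Igfbp7 (0.54) and Col4a2 (0.51). Col4a2 had Igfbp7 (0.65), Col1a1 (0.63), Col1a2 (0.63), the small proteoglycan gene Bgn (0.62) and Col3a1 (0.61). For Col15a1 they were Postn (0.36), Tgm2, Vim, Nppa and Hspb1, and for Col4a5 Vim (0.27), Clu, Igfbp7, Col1a2 and Col3a1. Col8a1 fell short of 200 control UMIs and was added after its values were seen, with Postn at 0.62, then Col1a2, Igfbp7, Bgn and Col5a2. In the control no value exceeded 0.25, which was that of Col15a1 with Gsn, the actin-severing protein gene often high in fibroblasts, followed by Col3a1, Col1a1, Igfbp7 and Sdc4. The control neighbours of Col4a1 (Actb, Cst3, Sparc, Camta2 and Fuca2), of Col4a2 (Igfbp7, Tmem176b, Hist2h2bb, Slco3a1 and Flnc) and of Col4a5 (Blmh, Ppfia1, Rab31, Pdlim5 and Prex2) had values of at most 0.13. Col4a1 and Col4a2, whose proteins assemble together, had a rho of 0.07 with each other in the control and 0.51 in the transgenic section. Each had a median of 5 UMIs per control spot and 11 per transgenic spot, so the 2 values are not at equal depth. Every rho of this paragraph includes the erythroid-rich and detached spots and was not computed without them. Col4a3 with Col4a4 had 0.04 and Col4a5 with Col4a6 0.13 in the transgenic section, at counts too low to read a pattern.

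Partners of these collagens were counted with the same rule, by which 13.7% of all tested genes were higher and 5.61% lower. Of 22 laminins, nidogens and other basement membrane genes, 21 had at least 20 UMIs, of which 9 were higher by 2-fold or more in the transgenic heart and 1 was lower, with a median log2 ratio of 0.87. The highest was the laminin γ3 gene Lamc3, with 7 UMIs in the control and 60 in the transgenic section, and the lowest the laminin β3 gene Lamb3, with 30.2 and 5.48 CPM. Among 21 genes that fold, secrete or cross-link collagen 10 were higher and none lower, with a median of 0.84. Lox, the lysyl oxidase that cross-links collagen fibres, went from 32 UMIs (2.23 CPM) to 1540 UMIs (119 CPM), and the collagen chaperone gene Serpinh1 had the lowest ratio with 393 and 303 CPM. Of 12 receptor genes 3 were higher, a share that rests on few genes, and none lower, with a median of 0.57, from Ddr1, a collagen-binding receptor kinase, at 49.3 and 259 CPM to Kdr, a VEGF receptor, at 215 and 113 CPM. Among 13 proteases and inhibitors 10 were higher and none lower, with a median of 1.67, from the inhibitor gene Timp1 at 1.88 and 53.0 CPM to Timp4 at 22.1 and 15.7 CPM. Of 34 other collagen genes 29 were counted often enough, 19 were higher and 2 lower, with a median of 1.44, from Col9a2 with 7 and 653 UMIs to Col25a1 with 25 and 6 UMIs. The median of the 10 basement membrane and network collagens, 1.87, stood beside these as a description.

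Marker sums of other cell types also differed between the sections. Stressed cardiomyocyte markers had 1412 CPM in the control heart and 40631 CPM in the transgenic heart, macrophage markers 295 and 570 CPM, endocardial markers 65.1 and 220 CPM, epicardial mesothelial markers 16.0 and 34.3 CPM, atrial markers 21.4 and 58.4 CPM, Schwann cell markers 11.4 and 9.34 CPM and erythroid markers 2145 and 20390 CPM. These sums do not speak for each gene. Of 4 endocardial genes 3 were at least 2-fold higher and 1, Cytl1, was lower, with 9.81 and 3.63 CPM. At least 2-fold higher were 3 of 8 macrophage, 2 of 7 epicardial mesothelial and 2 of 3 tested atrial genes, and none was lower. All 4 tested stressed cardiomyocyte and all 4 erythroid genes were higher, and all 4 Schwann cell genes lay within 2-fold. Over all tested genes 13.7% were higher and 5.61% lower. None of the genes of these lists was at 0 in either section.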

How the data were processed

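Visium CytAssist sections of 1 control and 1 TOP2B transgenic heart were compared, each 5 μm thick. Unnormalized UMI counts for every gene in each spot were deposited, made with Space Ranger 2.0.0 per the file headers. The submitters' processing notes name bcl2fastq and GRCm39, and the probe set is not given in the sources used here. A score of clustering, Moran's I, was also deposited for each gene. Its p-values and the images were not used.

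Section totals of each gene were scaled to CPM. No Wilcoxon test over spots was run, because spots are not replicates. A gene counted as higher or lower at 2-fold with at least 20 UMIs, and a count of 0 was bounded by 3 counts. Intervals have a level of 95% and cover counting error only. Named genes were the 10 members, the highest and lowest of each list, the 5 most similar genes by rho (members with at least 200 UMIs in both sections), Top2b and Y-linked genes. Members and lists were chosen with earlier results of these data known. Alternatives, run in R 4.3.3, used TMM factors of edgeR 4.0.16 and size factors of DESeq2 1.42.0. Others left the 50 most abundant genes out of the totals, took other sets or weights of spots, or added 1 CPM. Scripts ran in Python 3.11.15 with numpy 2.4.6, scipy 1.17.1 and pandas 2.3.3. The ratio intervals and Moran's I were tested on simulated Poisson counts, and thinning on the transgenic section's own counts. Xist, Actc1 and Hba-a1 were not analysed here.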

Additional observations from a re-analysis of the deposited data

How the results depend on the processing

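No paired analysis was possible because each group has 1 section. The number of members at least 2-fold higher was 7 under each alternative of scaling, spots, weights, added CPM and minimum UMIs. The other minimums kept all 10 members, so they could not change this number. Nor could the scaling alternatives, which lowered all log2 ratios by at most 0.16, while the lowest of the 7 was 1.65 for Col4a5. The summed log2 ratio of 0.96 was 0.80 with TMM factors, 0.81 with DESeq2 size factors, 0.87 without the 50 most abundant genes, 0.70 in the 50% of spots richest in cardiomyocyte markers and 0.91 as a mean over spots, and the cause was not tested. TMM and DESeq2 factors moved the median of all genes by −0.16 and −0.15. Such a factor moves the log2 ratio of every gene by the same amount, so the summed ratio moved with it. The DESeq2 size factor was 1 in both sections, so that alternative compared UMIs without scaling for depth. The border over interior ratio of the transgenic section, −0.01, was 0.032 with a border of 2 steps and −0.055 as a mean over spots, so its sign is not firm. No ratio of a member past 2-fold turned its direction, and 71 of 90 single values stayed inside the counting interval. The sign of Col15a1 turned with TMM factors, DESeq2 size factors, totals without abundant genes, the mean over spots and the cardiomyocyte-rich spots. Depth limits Col4a3, Col4a6 and Col8a2, with 46, 23 and 19 control UMIs.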
